A study of Xenopus tropicalis with 39 samples.

Results

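The gene models described here are 98 of the 26550 Xenopus tropicalis gene models measured. These models had RNA that was lower in vegetal masses after an Otx1 morpholino but stayed above a set limit after a Vegt morpholino. They were chosen by their measured levels in TPM, an abundance that allows for transcript length and sums to the same total in every library. A member had a mean of at least 3 TPM in uninjected masses, a ratio of Otx1 morpholino (Otx1 MO) to uninjected masses of at most 0.6 in both replicates, and a ratio of Vegt MO to uninjected masses above 0.67 in both. In animal caps, vegt RNA at 500 ng had to raise it less than 3 times over uninjected caps in at least 1 replicate. All ratios are of TPM + 0.5 between libraries with the same replicate number. The first criterion left 11681 gene models, called eligible below, and the members are 0.839% of them.

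Vegt is a T-box transcription factor whose maternal mRNA lies at the vegetal pole of the frog egg, and it is known for its need in endoderm and mesoderm formation through Nodal signals. Otx1 is a homeobox transcription factor of the orthodenticle family, best known from the anterior neural plate and head of vertebrates. Morpholinos are antisense oligonucleotides that block the translation or splicing of a chosen mRNA. The vegetal mass is the part of the embryo that goes on to form endoderm, and the animal cap forms ectoderm unless it receives other signals.

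The labels give no strain or genotype. RNA or morpholino was injected at the 1-cell stage. Vegetal masses came from uninjected, Vegt MO, Otx1 MO and Double MO (both morpholinos) embryos, and animal caps from uninjected embryos, embryos given vegt RNA at 50, 100, 200 or 500 ng, and embryos given vegt RNA at 100 ng together with otx1 RNA at 25, 50 or 100 ng. Each explant group had 2 libraries, called biological duplicates. The explants were harvested at stage 10.5, in early gastrulation, although the titles of the mass libraries read stage 10. Animal blastomeres, vegetal blastomeres and whole embryos of the 8-cell stage had 3 libraries each. The control of every injected group was uninjected, and no group with a control morpholino was used here. The doses are given as the labels print them. In these bulk samples, fewer cells of a type and less RNA per cell cannot be told apart.

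The gene models are identified by number and not by symbol, and a search of 28858 genes of the UCB_Xtro_10.0 assembly found 0 of the 98 members. No gene name, role or sequence is therefore given, and the tissues could not be checked against their markers. Total estimated counts per library were 10906279 to 16379814 in masses, 8289954 to 18201303 in caps and 9005402 to 17210721 at the 8-cell stage. The mass libraries of replicates 1 and 2 differed in several ways. The Otx1 MO ratio was at least the inverse of 0.6 for 2352 eligible models (20.1%) in replicate 2 and for 363 (3.11%) in replicate 1. This ratio cannot tell whether the Otx1 MO or the uninjected library differed. Xetrov90002928m.g, the identifier that followed the injected vegt RNA in caps, was at 1183 TPM in uninjected masses of replicate 2 and at 2959 to 4889 TPM in the other 7 mass libraries. Xetrov90013341m.g, which followed the otx1 RNA, was at 180 and 198 TPM in uninjected and Vegt MO masses of replicate 2, and at 449 to 731 TPM in the other 6. Whether these differences have a part in the results was not tested.

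The choice of members leaned on both uninjected libraries. An Otx1 MO ratio of at most 0.6 was met by 525 eligible models in replicate 1, by 797 in replicate 2 and by 256 (2.19%) in both. Of the 256, 153 failed the Vegt MO criterion and 5 more failed the cap criterion. With uninjected replicate 1 left out, so that replicate 2 served as the control of both, 156 models met the rule, of which 59 were members. With uninjected replicate 2 left out, 86 met it, of which 53 were members. Members were higher in uninjected replicate 2 than in replicate 1 by a median factor of 1.18, against 0.894 over the eligible models, and 27 members (27.6%) were at least 2 times higher there, against 6.1% of the eligible. Nearest inside the Otx1 threshold were Xetrov90027845m.g, with ratios of 0.5997 and 0.232, and Xetrov90011735m.g, with 0.5999 and 0.414. Nearest outside were Xetrov90013058m.g, with 0.602 and 0.608, and Xetrov90026250m.g, with 0.503 and 0.608. There were 7 identifiers, 1 set that includes Xetrov90006481m.g, with the same values in every library, so that the members stand for 92 distinct profiles.

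The members were short. The estimated counts behind 1 TPM, which grow with a transcript's effective length, had a median of 7.47 over the members and 12.4 over the eligible models. Of the members, 46 (46.9%) lay in the shortest of 4 equal length classes of the eligible models, 34 in the second, 11 in the third and 7 in the longest. The 7 identifiers with the same values are each counted in the shortest class, and the median of the other 91 members was 7.51. Length moved with the Otx1 MO response across all eligible models as well. The median log2 ratio of Otx1 MO to uninjected was -0.05 and 0.00 in the shortest class, in replicates 1 and 2, and 0.14 and 0.35 in the longest. A ratio of at most 0.6 in both replicates was met by 4.31% of the shortest class and by 0.79% of the longest. When each ratio was divided by the median of the models in the same of 10 equal length classes, 105 models met the rule, of which 91 were members.

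In uninjected masses the members ranged from 3.12 to 512 TPM with a median of 25.2 TPM. Their summed level was 4058 and 4938 TPM in the uninjected libraries, 1768 and 1727 TPM after the Otx1 MO, 5152 and 5752 TPM after the Vegt MO, and 2070 and 2133 TPM after both. The Otx1 MO and Vegt MO values chose the members and are given as a description only. The median Otx1 MO ratio was 0.457 in replicate 1 and 0.398 in replicate 2.

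The member with the highest level, Xetrov90008821m.g, was at 577 and 447 TPM in uninjected masses, 258 and 138 TPM after the Otx1 MO, 452 and 357 TPM after the Vegt MO, and 198 and 116 TPM after both. Its 4 libraries with the Otx1 MO all lay below its 4 libraries without it. It gave 1.13 estimated counts per TPM, so its precision is lower than its TPM alone would imply. The next highest, Xetrov90028377m.g, was at 261 and 346 TPM in uninjected masses, 116 and 157 TPM after the Otx1 MO, 322 and 389 TPM after the Vegt MO, and 104 and 207 TPM after both. Its 4 libraries with the Otx1 MO again lay below its 4 libraries without it.

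The lowest Otx1 MO ratios were those of Xetrov90030703m.g and Xetrov90028982m.g. Xetrov90030703m.g was at 7.29 and 23.5 TPM in uninjected masses, 0.60 and 0.26 TPM after the Otx1 MO, 14.7 and 16.03 TPM after the Vegt MO, and 1.66 and 2.34 TPM after both. Its 2 uninjected libraries differed by more than 3 times, yet each was above every library that held the Otx1 MO. Xetrov90028982m.g was at 220 and 208 TPM in uninjected masses, 32.5 and 18.9 TPM after the Otx1 MO, 204 and 175 TPM after the Vegt MO, and 23.4 and 10.9 TPM after both. Its replicates were close to each other in uninjected and Vegt MO masses, and its Double MO ratios of 0.108 and 0.054 had the lowest geometric mean of all members.

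The name of the group, independence of Vegt, was met only in part, since the rule set a lower limit on the Vegt MO ratio and no upper one. Smaller falls passed the lower limit, and the lowest Vegt MO ratios were 0.709 in replicate 1 and 0.682 in replicate 2. The members were divided by that ratio, a division made after the values were seen, so it is a description. In 63 members the ratio was under 1.5 in both replicates, in 21 it was at least 1.5 in 1 replicate, and in 14 it was at least 1.5 in both. The same rise in both replicates was seen in 2.12% of the eligible models. These 3 sets are called flat, mixed and raised. The median Vegt MO ratio was 0.942 and 0.934 in the flat set and 2.63 and 3.08 in the raised set, while in the mixed set it was 1.77 in replicate 1 and 1.09 in replicate 2.

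The widest rise was that of Xetrov90010442m.g. It was at 12.6 and 12.7 TPM in uninjected masses, 225 and 231 TPM after the Vegt MO, 6.56 and 5.10 TPM after the Otx1 MO, and 32.8 and 13.1 TPM after both. Xetrov90007934m.g was at 8.34 and 3.44 TPM in uninjected masses, 66.9 and 52.0 TPM after the Vegt MO, 1.78 and 1.06 TPM after the Otx1 MO, and 12.2 and 9.64 TPM after both. In both, the Vegt MO libraries stood above all others, and the Otx1 MO libraries below all others. The Double MO ratios of Xetrov90007934m.g, 1.44 and 2.57, had the highest geometric mean of all members.

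**Figure D1:**
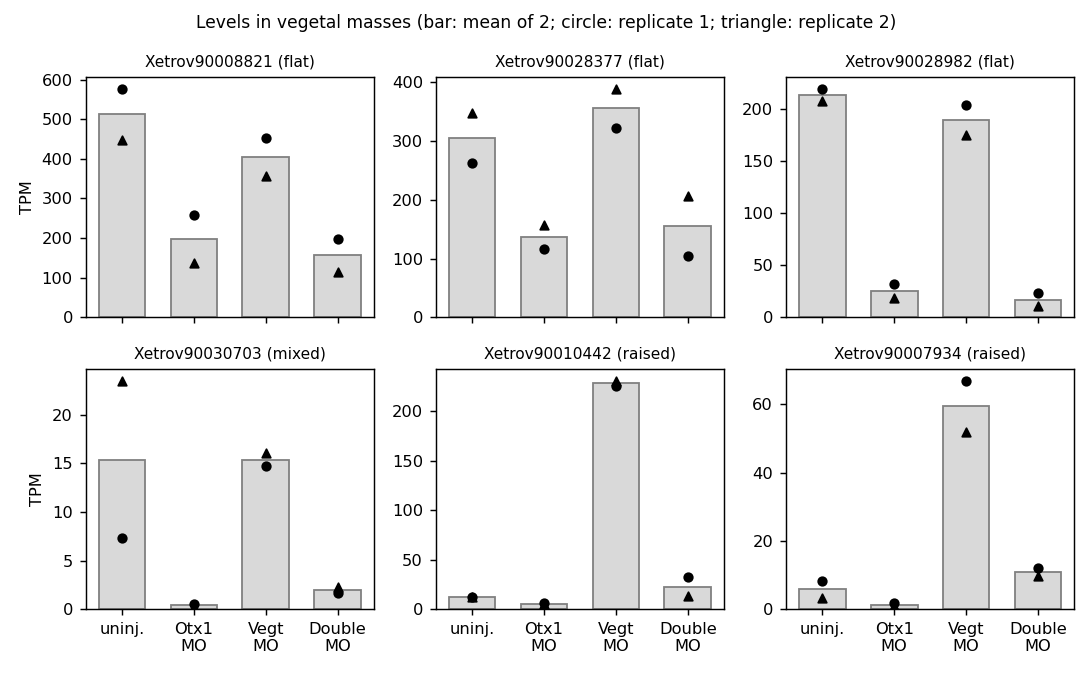
TPM of 6 members in the 4 groups of vegetal masses, with bars for the mean of 2 libraries and a point for each library. Flat, mixed and raised name the size of the Vegt MO ratio. The first 4 panels show members low in both groups with the Otx1 MO; Xetrov90010442 and Xetrov90007934 were highest after the Vegt MO alone, at 225 and 231 TPM and at 66.9 and 52.0 TPM.

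**Figure D2:**
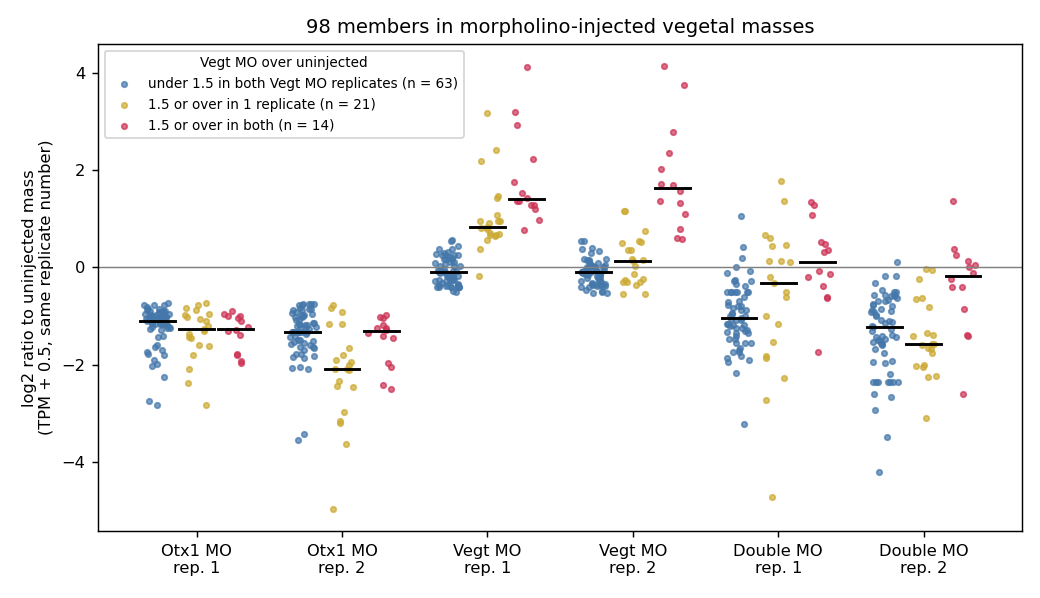
Log2 ratio of each morpholino group to uninjected masses of the same replicate number for all 98 members, by the size of their Vegt MO ratio; each point is a member and each black line a median. The Otx1 MO and Vegt MO points lie where the rule put them. In Double MO masses the median ratio of the raised set was 1.10 and 0.881, against 0.485 and 0.427 in the flat set. The ratio that divided the sets shares the uninjected libraries, so this contrast is a description only.

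Masses with both morpholinos were not used by the rule, but their comparison with uninjected masses shares the uninjected libraries that chose the members. Most flat members stayed low when both morpholinos were present, whereas no raised member did in both replicates. The Vegt MO ratio that divided the sets shares its uninjected libraries with the Double MO ratio. This contrast between the sets therefore follows in part from the division and is no finding. A Double MO ratio of at most 0.6 in both replicates was found in 46 of the 98 members, against 3.84% of the eligible models. These were 38 of the 63 flat members, 8 of the 21 mixed members and 0 of the 14 raised members. A further 5 members met it only in replicate 1 and 21 only in replicate 2, so the replicates differed in how many members were low. These 21 include the 7 identifiers with the same values in every library, all of them flat, which stand for 1 profile. Over all members the median log2 ratio was -0.79 in replicate 1 and -1.24 in replicate 2, against 0.05 and 0.12 over the eligible models.

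In edgeR's quasi-likelihood test with Benjamini-Hochberg adjustment over all 16269 features tested, 1 of the 95 members tested was lower and 0 were higher in Double MO than in uninjected masses, against 0.0615% of all features. With the replicate number as a block, 48 members were lower and 0 higher, against 6.98% of all features. The uninjected libraries tested here also chose the members, so these calls are a description and no independent finding. The replicate numbers were taken to pair the libraries. The member called without the block, Xetrov90024491m.g, was at 76.1 and 68.3 TPM in uninjected masses and at 16.6 and 17.8 TPM in Double MO masses, with 77.7 and 86.5 TPM after the Vegt MO and 22.4 and 19.6 TPM after the Otx1 MO. Its log2 fold change was -2.18 ± 0.20 (SE, edgeR adjusted p = 0.0361), and it was named after its value was seen. Without the block the median log2 fold change over the members tested was -1.13, and it was -0.78 when uninjected replicate 2 was left out.

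Double MO masses also stood below Vegt MO masses. The ratio was under 1 in both replicates in 94 of the 98 members, against 29.3% of the eligible models. In the raised set its median was 0.315 and 0.255, in the mixed set 0.406 and 0.339, and in the flat set 0.501 and 0.472. These libraries share with the rule the Vegt MO values that kept a member in. The raised set was moreover defined by high Vegt MO values, so its lower ratio follows in part from that division and is no finding.

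Against Otx1 MO masses, Double MO masses were higher for part of the members. A ratio of at least 1.5 in both replicates was found in 25 members, against 1.34% of the eligible models, and a ratio of at most 0.67 in both in 1 member. Of the 25, 10 were raised, 8 were mixed and 7 were flat members. The median ratio was 2.50 and 2.25 in the raised set and 1.04 and 1.04 in the flat set. The Otx1 MO libraries chose the members for low values there, so a ratio above 1 is no independent finding.

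In uninjected animal caps the sets differed in level. The raised members were far higher in caps than in masses, at a median of 139 TPM in caps and 10.0 TPM in masses, and 10 of the 14 were at least 2 times higher in caps. Flat members went the other way, with medians of 21.3 TPM and 32.3 TPM, and 31 of the 63 were at least 2 times lower in caps. Over all members, 17 were at least 2 times higher in caps (17.3%, against 13.1% of the eligible models), and 41 were at least 2 times lower (41.8%, against 28.4%). Caps and masses were processed in separate tables, so these levels are set side by side with no test. The Vegt MO ratio that divided the sets shares the uninjected mass libraries with this comparison. The difference between the sets could thus follow in part from the division and is a description only. The rule also used the uninjected libraries of both tissues, so the shares over all members are a description too.

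The 2 raised members above were examples. Xetrov90010442m.g was at 1185 and 1806 TPM in uninjected caps, and Xetrov90007934m.g at 344 and 493 TPM. The 4 cap values all exceeded the highest value of the same member in any mass library. Among eligible models with the same rise after the Vegt MO in both replicates, 36.3% were at least 2 times higher in caps, against 11.4% of the eligible models that were under 1.5 in both. Both ratios used here share the uninjected mass libraries, so these shares are a description only. The 95 eligible models that were at least 8 times higher in caps, 5 of them members, had a median log2 Otx1 MO ratio of 0.10 and 0.35 and a median log2 Vegt MO ratio of 0.45 and 0.51. Of these 95, 5.26% had an Otx1 MO ratio of at most 0.6 in both replicates, against 2.19% of all eligible models. The 5 members among them met this limit by the rule, so the higher share is no finding. Among the 1525 eligible models at least 2 times higher in caps, the share was 1.7%. What part this has in the results was not tested.

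**Figure D3:**
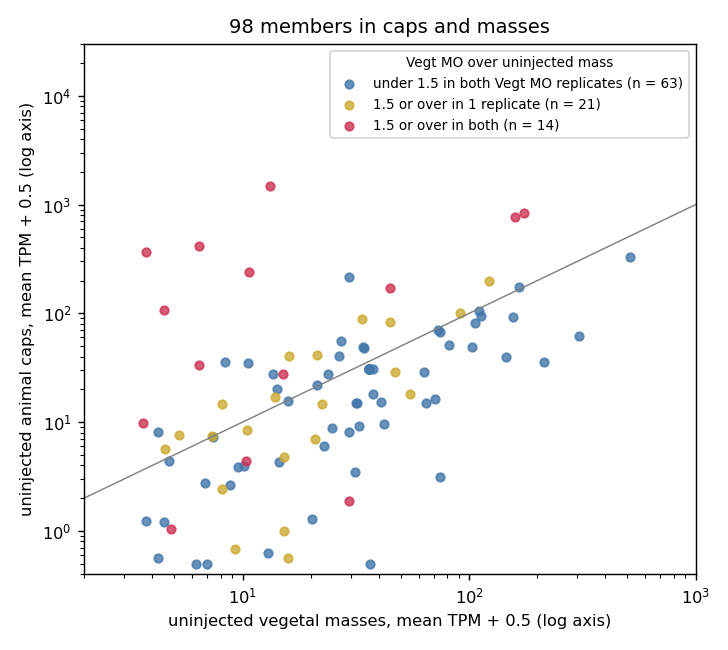
Mean level of each member in uninjected animal caps against uninjected vegetal masses, both axes logarithmic, with the line of equal levels and colours by the size of the Vegt MO ratio. Of the 14 raised members 10 lie at least 2 times above the line, while 31 of the 63 flat members lie at least 2 times below it. The Vegt MO ratio shares the uninjected mass libraries with the horizontal axis, so this contrast is a description only.

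The doses of vegt RNA alone from 50 to 200 ng in caps were not used by the rule, and no member was called for its trend over them. In edgeR's test of the trend per doubling of dose, 0 of the 88 members tested were called, against 0% of all 16360 features. Before adjustment 1 member had a p under 0.05, against 192 of the 16360 features. With the replicate block 0 members were called, against 0.0122% of all features, and neither DESeq2 (0) nor limma (0) called one. Over all features DESeq2 called 2 higher and 0 lower, and limma called 0. The median slope was -0.02 log2 per doubling, and 39 of the 88 slopes were positive. Of the 14 raised members 3 had a positive slope, and their median was -0.15. The steepest by p, neither of them called, were Xetrov90027845m.g with a slope of 0.34 ± 0.26 (SE, edgeR adjusted p = 1) and Xetrov90000607m.g with -0.39 ± 0.17 (SE, edgeR adjusted p = 1). With 1 library left out, these slopes ranged from 0.14 to 0.50 and from -0.55 to -0.19. Xetrov90000607m.g was at 14.4 and 20.5 TPM with vegt RNA at 50 ng, 16.2 and 14.7 TPM at 100 ng, and 13.0 and 7.92 TPM at 200 ng. Its values at 50 and 100 ng overlapped, and those at 200 ng lay below them.

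At 500 ng, the dose that entered the rule, 9 of the 98 members were at most 0.6 of uninjected caps in both replicates, 5 of them raised members, against 0.89% of the eligible models. Xetrov90010442m.g was at 1185 and 1806 TPM in uninjected caps, 1057 and 1232 TPM at 50 ng, 941 and 1104 TPM at 100 ng, 955 and 1068 TPM at 200 ng, and 610 and 510 TPM at 500 ng. Both of its libraries at 500 ng were below every library of the lower doses. In both replicates 8 of the 98 members were at least 1.5 times uninjected caps, against 3.35% of the eligible models. Among them Xetrov90027845m.g was at 90.4 and 85.9 TPM in uninjected caps and at 215 and 316 TPM at 500 ng, and it stayed a member because only 1 replicate passed 3 times. The direction at 500 ng was limited upward by the rule.

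Otx1 RNA in caps asked whether members that were lower in masses after the Otx1 MO rose when otx1 RNA was added to vegt RNA. The rule did not use these libraries. No group had otx1 RNA without vegt RNA, so its effect in caps without vegt RNA cannot be told. Most members were not called, and those called went both ways. In edgeR's test of otx1 RNA at 100 ng against none, both with vegt RNA at 100 ng, 0 of 88 members were called, against 0% of 16360 features. Before adjustment 9 members had a p under 0.05, against 424 of the 16360 features. DESeq2 called 3 members (2 higher, 1 lower), against 23 features higher and 20 lower in all. With limma 0 members were called, against 9 features higher and 0 lower in all. With the replicate block, 3 members were higher and 2 lower, 5.68% of those tested, against 0.562% of all features. The median log2 fold change of the members was 0.05, and 51 of 88 were positive. With limma the median was -0.0042 and 42 were positive. In the trend over the 4 otx1 doses, 0 members were called without the block, against 0% of all features. Before adjustment 10 had a p under 0.05, against 424 of the 16360 features. DESeq2 called 3 members (2 higher, 1 lower), against 27 features higher and 21 lower in all. With limma 0 members were called, against 11 features higher and 0 lower in all. With the block 3 rose and 3 fell, 6.82% of those tested, against 0.752% of all features.

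Among the members called with the block, the largest rises were those of Xetrov90011523m.g and Xetrov90009036m.g. In caps with vegt RNA at 100 ng, Xetrov90011523m.g was at 1.00 and 0.34 TPM without otx1 RNA, 1.04 and 1.37 TPM at 25 ng, 1.96 and 2.39 TPM at 50 ng, and 3.26 and 3.43 TPM at 100 ng. Its log2 fold change at 100 ng was 2.35 ± 0.47 with the block (SE, edgeR adjusted p = 0.0413) and 2.40 ± 0.53 without it (edgeR adjusted p = 0.556). Its levels were low, and both libraries at 100 ng were above all those at 0 to 50 ng.

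Xetrov90009036m.g was at 13.6 and 9.84 TPM without otx1 RNA, 26.6 and 20.6 TPM at 25 ng, 37.6 and 24.4 TPM at 50 ng, and 36.5 and 35.7 TPM at 100 ng. Its log2 fold change at 100 ng was 1.70 ± 0.17 with the block (SE, edgeR adjusted p = 0.00093) and 1.68 ± 0.29 without it (edgeR adjusted p = 0.293). Every library with otx1 RNA was above both libraries without it. Xetrov90007934m.g, a raised member, was also higher, at 272 and 363 TPM without otx1 RNA and 493 and 667 TPM at 100 ng (log2 fold change 0.91 ± 0.16 with the block, edgeR adjusted p = 0.026; adjusted p = 1 without it).

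The 2 members called lower with the block at 100 ng were Xetrov90027845m.g and Xetrov90001825m.g. Xetrov90027845m.g was at 158 and 233 TPM without otx1 RNA, 111 and 183 TPM at 25 ng, 107 and 195 TPM at 50 ng, and 42.9 and 96.2 TPM at 100 ng. Its log2 fold change at 100 ng was -1.49 ± 0.20 with the block (SE, edgeR adjusted p = 0.00897) and -1.44 ± 0.52 without it (edgeR adjusted p = 1). Within each replicate the level at 100 ng was less than the level at any lower dose. Without the block its log2 fold change was -0.96 when replicate 1 at 100 ng was left out and -2.21 when replicate 2 was left out.

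Xetrov90001825m.g was at 68.6 and 99.4 TPM without otx1 RNA and at 30.4 and 57.5 TPM at 100 ng. Its log2 fold change was -0.91 ± 0.16 with the block (SE, edgeR adjusted p = 0.0207) and -0.89 ± 0.44 without it (edgeR adjusted p = 1). Without the block it ranged from -1.50 to -0.49 when 1 of these 4 libraries was left out. With the block Xetrov90006036m.g passed in the trend alone, with a slope of -0.42 ± 0.08 log2 per doubling of the dose plus 25 ng with the block (SE, edgeR adjusted p = 0.0413) and an edgeR adjusted p of 0.552 without it. It was at 52.5 and 46.5 TPM without otx1 RNA and at 20.5 and 27.1 TPM at 100 ng, and these groups did not overlap. In masses all 3 of these members were lower after the Otx1 MO, as the rule required. They were thus lower in masses with the Otx1 MO and, in caps given vegt RNA at 100 ng, lower with added otx1 RNA. In uninjected caps Xetrov90001825m.g was at 33.15 and 36.43 TPM, below its levels with vegt RNA alone. Xetrov90027845m.g too was lower in uninjected caps than with vegt RNA at 100 ng alone. Xetrov90006036m.g was at 47.55 and 33.79 TPM in uninjected caps. In each replicate that level lay below the one with vegt RNA alone and above the one with otx1 RNA at 100 ng.

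**Figure D4:**
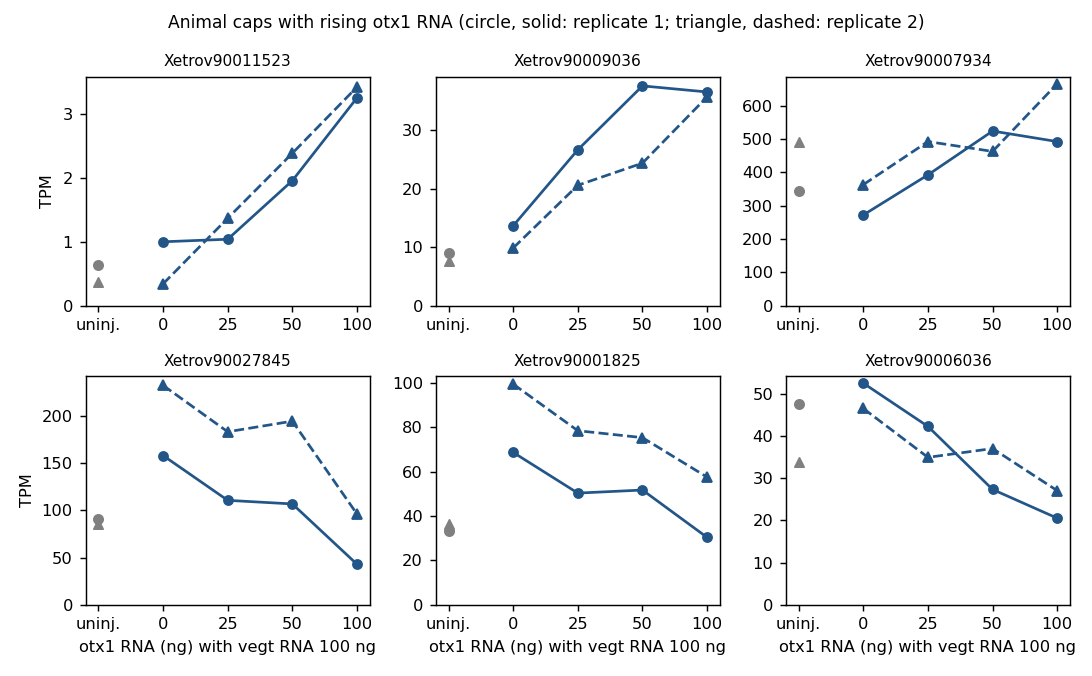
TPM in animal caps of the 6 members called in a blocked test of otx1 RNA. Uninjected caps are in grey, beside caps with vegt RNA at 100 ng and otx1 RNA at 0, 25, 50 or 100 ng. Circles are replicate 1 and triangles replicate 2. The upper 3 were higher at 100 ng than without otx1 RNA in both replicates and the lower 3 were lower in both.

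At the 8-cell stage, when the RNA in the embryo is maternal, the members were low more often than the eligible models. In whole embryos 23 members were under 0.1 TPM on average, 18 from 0.1 to 1 TPM, 29 from 1 to 10 TPM and 28 at 10 TPM or more. Of the 11681 eligible models, 4.8% were under 0.1 TPM and 68.7% at 10 TPM or more, against 23.5% and 28.6% of the members. The flat members were the more often present, with 43 of 63 at 1 TPM or more. This held for 8 of 21 mixed and 6 of 14 raised members. The 7 identifiers with the same values, all flat and at a mean of 13.2 TPM, are each counted here. Xetrov90028377m.g was at 0.15, 0.48 and 0.79 TPM in whole 8-cell embryos, under 1 TPM in each of the 3 libraries, although it was the second highest member in masses. Xetrov90008821m.g was at 115, 126 and 461 TPM, with the third library far above the others. The members summed to 969, 897 and 2018 TPM in whole embryos and to 874, 1039 and 2175 TPM in vegetal blastomeres, so replicate 3 was the higher in both; in animal blastomeres the sums were 1257, 944 and 1368 TPM.

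**Figure D5:**
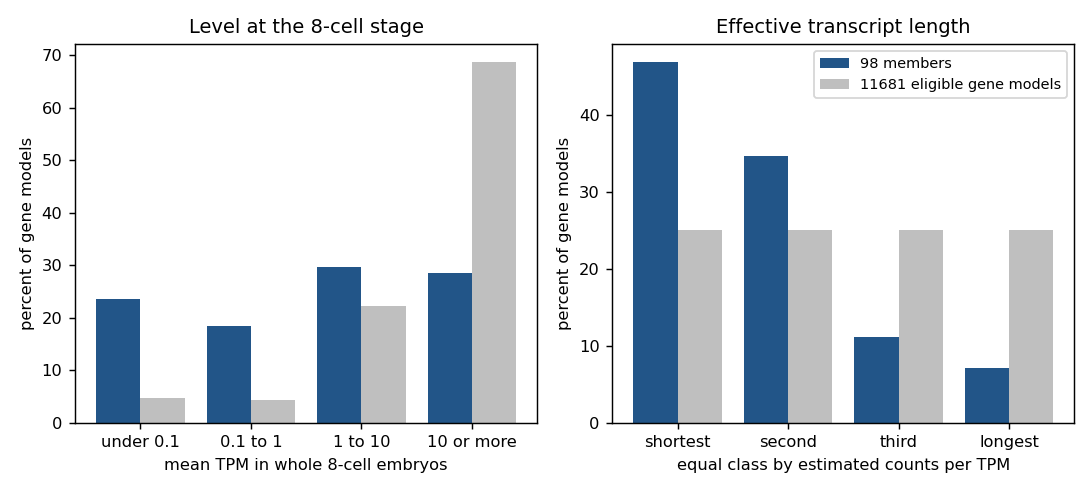
Share of the 98 members and of the 11681 eligible gene models in 4 classes of mean TPM in whole 8-cell embryos, and in 4 equal classes of effective transcript length. Of the members 23.5% were under 0.1 TPM, against 4.8% of the eligible models, and 46.9% lay in the shortest class. The 7 identifiers with the same values in every library are each counted.

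No difference between vegetal and animal blastomeres was called for any member. Of the 56 members with enough counts for the test, edgeR called 0, against 0.467% of the 13503 features tested. Before adjustment 1 member had a p under 0.05, against 433 of the 13503 features. Neither DESeq2 (0) nor limma (0) called a member. Over all 13503 features, DESeq2 called 127 higher and 26 lower in vegetal blastomeres, and limma called 55 higher and 2 lower. With the replicate block 0 were called, against 1.33% of all features. The median log2 fold change was 0.19, and it was -0.46 without vegetal replicate 3. The lowest p on the vegetal side was that of Xetrov90003227m.g, a raised member, which was at 4.83, 10.8 and 12.8 TPM in vegetal blastomeres and 4.34, 1.82 and 3.14 TPM in animal blastomeres, a log2 fold change of 1.63 ± 0.68 (SE, edgeR adjusted p = 1). The 3 vegetal libraries lay above the 3 animal ones. On the animal side it was Xetrov90011087m.g, at 27.1, 36.8 and 20.8 TPM in animal blastomeres and 22.4, 14.2 and 4.79 TPM in vegetal ones. Its log2 fold change was -1.03 ± 0.55 (SE, edgeR adjusted p = 1), or -1.22 ± 0.35 with the block (edgeR adjusted p = 0.225). Its groups overlapped, although the vegetal value was the lower in each of the 3 same-numbered pairs.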

How the data were processed

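Per the labels' protocols, libraries were tagmented Smart-seq2 cDNA. The authors deposited a table of estimated counts and a table of TPM for each of 3 experiments; the submitters' processing notes name Bowtie2 2.2.7 and RSEM 1.2.12. The genome build is not given in the sources used here. Columns were mapped to 33 RNA libraries by their labels. TPM gave the levels and ratios (pseudocount 0.5). Estimated counts were rounded and tested with edgeR 4.0.16 (TMM scaling, filterByExpr, quasi-likelihood fit over all groups of a table). Each SE printed with an edgeR value was the absolute log2 fold change or slope divided by the square root of the test's F statistic. The alternatives were limma 3.58.1 on log2(TPM + 0.5) and DESeq2 1.42.0. The fits without the block were also run on simulated counts that had a fixed spread and no shared replicate deviation. The fits with the block were not run on simulated counts. Libraries that share a number deviated together from their group means, with correlations of 0.706 to 0.816 in masses, 0.668 to 0.891 in caps and 0.426 to 0.679 at the 8-cell stage, so the numbers were taken to pair libraries, although an explant comparison holds only 2 pairs. The labels do not say what a number marks. The peak lists were not used, since the identifiers carry no positions; lists by gene symbol could not be read. Members, thresholds and lists were chosen with earlier results of these data known. Named members are the 2 highest in uninjected masses, the 2 with the lowest Otx1 MO ratio, those nearest the threshold, those with the lowest and highest geometric mean of the Double MO ratios and, per test on libraries outside the rule, up to 2 per direction with the largest change among those called without the block, then with it, and otherwise the lowest p. Xetrov90010442m.g and Xetrov90024491m.g were added after their values were seen, as were Xetrov90006481m.g and the identifiers that followed the injected RNAs.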

Additional observations from a re-analysis of the deposited data

Results flagged for a closer look

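In Xetrov90015624m.g the Otx1 morpholino went with opposite directions without and with the Vegt morpholino. It was at 5.51 and 8.33 TPM in uninjected masses and 3.02 and 3.35 TPM after the Otx1 MO, a fall that the rule required. After the Vegt MO it was at 3.76 and 5.70 TPM, and after both at 5.08 and 6.57 TPM, so that the ratio of Double MO to Vegt MO was 1.31 in replicate 1 and 1.14 in replicate 2. The other 97 members had a ratio under 1 in at least 1 replicate. The difference between the directions was not tested, since the rule used 3 of the 4 groups.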

How the results depend on the processing

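With a pseudocount of 0.1 or 1 the rule took 102 or 91 gene models, of which 96 and 88 were members; with an Otx1 MO limit of 0.5 it took 57, and with a minimum of 1 or 10 TPM it took 120 or 71. With TMM-scaled CPM in place of TPM it took 110, of which 89 were members. Leaving out an uninjected library, an alternative chosen after seeing the data like that on length, gave 86 to 156. The replicate block raised the members called from 1 to 48 for Double MO against uninjected masses, from 0 to 52 (all lower) against Vegt MO, and from 0 to 4 (all higher, Xetrov90007934m.g and Xetrov90020244m.g changing most) against Otx1 MO. Over all 16269 features, the block called 660 lower against uninjected masses, 332 lower against Vegt MO and 19 higher against Otx1 MO. These mass comparisons share libraries with the rule, so the members called in them, under any setting, are a description only. For otx1 RNA at 100 ng the block raised the members called from 0 to 5, against 0.562% of all features. For its dose trend the block raised them from 0 to 6, against 0.752%, and it left the vegt trend and the 8-cell comparison at 0. DESeq2 called 26, 27, 3, 3 and 3 members in the first 5 of these comparisons. Over all 16269 features of the mass comparisons, DESeq2 called 209, 90 and 37 lower and 94, 39 and 14 higher. Over the 16360 features in caps, it called 20 and 21 lower and 23 and 27 higher. With no filter on low counts edgeR called 3 members lower for Double MO against uninjected masses, with 36 lower over all 27387 features. In fits added after seeing the data, it called 8 members (all lower) against Vegt MO, with 12 lower over all features, and 0 members against Otx1 MO. The cause of these differences was not tested. The fits with 1 library left out were run only without the block, so they do not bear on the members called with it. The directions of the members picked for a test on libraries outside the rule held under every alternative run. They were picked from these same libraries, so this gives no independent support. Xetrov90007934m.g was not among the members checked.

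The median log2 fold change of the members over the libraries left out ranged from -1.32 to -0.78 for Double MO against uninjected masses, from -1.47 to -1.02 against Vegt MO, from 0.06 to 0.62 against Otx1 MO, from 0.03 to 0.19 for otx1 RNA at 100 ng, from 0.01 to 0.09 for its trend, from -0.05 to 0.03 for the vegt trend, and from -0.46 to 0.27 for vegetal against animal blastomeres. With 2 libraries per explant group, the p-values rest on a spread estimated from all groups of an experiment and shared in part between features. Small changes were not detectable. Members with few counts were not tested: 3 in masses, 10 in caps and 42 at the 8-cell stage.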

Other observations

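The tables also held 5684 long non-coding RNA (lncRNA) models, which the rule left out by their identifiers. With the same thresholds, 952 of them had a mean of at least 3 TPM in uninjected masses, 47 (4.94%) had an Otx1 MO ratio of at most 0.6 in both replicates, and 18 (1.89%) met the whole rule, against 0.839% of the eligible gene models. Among gene models that Otx1 MO limit was met by 4.31% of the shortest length class and 0.79% of the longest. Whether length or low counts have a part in the lncRNA shares was not tested. In 4 of the 18 lncRNA models the Double MO ratio was also at most 0.6 in both replicates. Of all 18, the one with the highest level in uninjected masses was lncrna_single_sw_00246276, which is not among these 4. It was at 59.7 and 74.0 TPM in uninjected masses, 16.4 and 16.6 TPM after the Otx1 MO, 57.6 and 115 TPM after the Vegt MO, and 46.6 and 18.5 TPM after both. In caps it was at 0.57 to 8.68 TPM over the 16 libraries. It was named after its values were seen, and the Otx1 MO and Vegt MO values are again those that chose it.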
